A study of Mus musculus with 3 samples.

Results

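A set of 9 genes of the endothelial junction and of the fenestral diaphragm was followed through the endothelium of mouse Peyer's patches (PP), the lymphoid follicles of the small intestine. They are the 9 rows that carry the symbols Cldn5, Ocln, Tjp1, F11r, Jam2, Esam, Cdh5, Plvap and Cgnl1 among the 31053 gene rows that the 3 libraries share, and all 9 were found. The libraries are described as sorted PP endothelial cells (EC) and were profiled with droplet-based 3′ single-cell RNA sequencing. One control library is labelled WT, strain C57BL/6, and the study's methods describe controls as littermates without the cre transgene. The paper's results name Cre-negative controls and WT mice side by side, so which of them this library holds is not settled. Whether the WT mice received tamoxifen is not clear from its wording. If they did not, tamoxifen and genotype cannot be told apart. The other libraries, COUPOE replicate 1 and replicate 2, came from CDH5(PAC)CreERT2;COUP-TFIIOE/OE mice, in which tamoxifen switches on overexpression of COUP-TFII, the venous transcription factor encoded by Nr2f2, in EC. All mice were 6 to 10 weeks old, both sexes were processed together, and the methods give 14 to 19 days after tamoxifen for the isolation of EC. By Xist and Y-linked transcripts, EC of the classes named below were 1160 female and 78 male in the control library. They were 1089 and 627 in COUPOE replicate 1 and 351 and 122 in replicate 2, so the sex mix differed between libraries. The number of mice in each library is not stated. The transgene is driven by the Cdh5 promoter in a P1-derived artificial chromosome, so Cdh5 is both a member of the set and the gene whose regulatory sequence drives the recombinase. The replicates may differ only technically. P values by genotype within a class then measure the spread between the COUPOE libraries. In tests that span classes, differences between whole libraries were taken out. Their P values measure the remaining spread, pooled over all classes.

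EC are held together by tight junctions, in which claudins such as claudin-5 (Cldn5) and the MARVEL protein occludin (Ocln) seal the cleft and the scaffold ZO-1 (Tjp1) and the cingulin relative paracingulin (Cgnl1) tie it to the cytoskeleton, and by adherens junctions built on VE-cadherin (Cdh5). Immunoglobulin-type proteins (F11r or JAM-A, Jam2 or JAM-B, and Esam) sit at the same contacts, where leukocytes cross. PLVAP (Plvap) forms the diaphragms of fenestrae, caveolae and transendothelial channels, and it is abundant in the permeable blood capillaries of the gut.

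The control library, COUPOE replicate 1 and COUPOE replicate 2 held 5341, 4704 and 1239 cells after filtering, from totals of 17341398, 17417260 and 3548983 unique molecular identifiers (UMIs). Clustering, done without the 9 genes, gave 6 classes of EC that were named by marker lists, and each name means that the cells resemble that type. They were high endothelial cells (HEC, the EC that admit lymphocytes), post-capillary venules (PCV), arterial, capillary, capillary resident progenitors (CRP) and lymphatic EC. In the order control, COUPOE replicate 1 and COUPOE replicate 2, there were 380, 80 and 2 HEC, 296, 502 and 83 PCV, 269, 94 and 38 arterial, 585, 943 and 386 capillary, 119, 197 and 82 CRP, and 4, 923 and 127 lymphatic EC. Sums of fewer than 10 cells were left out, so HEC rest on the control library and replicate 1, and lymphatic EC, present although the libraries are labelled as blood EC, on the 2 COUPOE libraries. The CRP class is not uniform. Its summed CRP markers stood at 730 to 932 CPM (UMIs scaled to a common library total) against 95.2 to 451 CPM in capillary EC. Its summed capillary markers (11557 to 17584 CPM) were above those of capillary EC (8723 to 12314 CPM) in every library. At a finer resolution it split into a cluster led by Gpihbp1, Aqp7 and Timp4, named capillary by its markers, and one led by Apln and Pgf, named CRP. Statements about CRP below are about this mixed class. A further 775, 1524 and 374 blood EC fell into clusters that were left unnamed and are given by number. Not all cells were EC. In the same order there were 2491, 8 and 4 fibroblasts and 205, 2 and 5 glia. The make-up of the control library thus differed from that of both COUPOE libraries, and its part in the genotype comparisons was not tested.

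COUPOE replicate 1 was counted with Cell Ranger 3.1.0 per its file header and the other libraries with 3.0.2. The 2491 fibroblasts of the control library gave the background level of the endothelial members, at 3.18 CPM for Cldn5, 6.23 CPM for Cdh5, 10.1 CPM for Esam and 158 CPM for Plvap. Nr2f2 rose from 19.4 CPM in control capillary EC to 2172 and 1318 CPM in the COUPOE libraries, as the labels state, whereas the CreERT2 row held 0 UMIs in the control library and in replicate 2 and checks nothing.

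Promoter sequence was examined because a transcription factor is the agent of this study, and the stretch is shown for Cldn5 and Cgnl1, the members with an entry that differed in the most class comparisons. It is the 250 bases upstream of the RefSeq start on GRCm38.p6, 5′ to 3′ on the strand of the gene. Capitals mark matches to the nuclear receptor half-site GGTCA or its complement TGACC, present in 35.2% of the 32851 promoters in the RefSeq table, and to the ETS-type hexamer CAGGAA or TTCCTG, present in 25.7%. Cldn5 lies on the plus strand at chr16:18776597-18776846 and Cgnl1 on the minus strand at chr9:71771603-71771852.
Cldn5: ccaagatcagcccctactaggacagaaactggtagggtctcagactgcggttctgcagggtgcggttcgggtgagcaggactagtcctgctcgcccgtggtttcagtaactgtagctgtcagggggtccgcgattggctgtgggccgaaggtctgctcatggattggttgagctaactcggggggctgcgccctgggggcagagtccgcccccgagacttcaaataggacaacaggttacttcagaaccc
Cgnl1: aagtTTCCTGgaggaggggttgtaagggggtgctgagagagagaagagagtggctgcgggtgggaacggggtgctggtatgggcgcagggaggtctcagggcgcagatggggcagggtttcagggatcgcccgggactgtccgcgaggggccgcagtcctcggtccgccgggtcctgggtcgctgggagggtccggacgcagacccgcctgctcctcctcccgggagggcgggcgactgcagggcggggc
The Cldn5 window held neither motif, the Cgnl1 window held 1 ETS-type hexamer and no half-site, and of the other members with an entry Ocln held 1 half-site while Tjp1 and F11r held no match of either kind. Jam2, Esam, Cdh5 and Plvap had no entry. A missing match says only that these letters are not in this window. The COUP-TFII motif of the paper, GGTC(A/G), also allows GGTCG, which occurs in the Cgnl1 and Tjp1 windows but was neither marked nor counted. The Tjp1 window lies 156537 bases from the GENCODE start of that gene.

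Claudin-5 separated the classes more widely than any other member. The Cldn5 gene spans chr16:18776847-18778262 and is 1416 bases long. In PCV it stood at 2310 CPM in the control library, 1790 in COUPOE replicate 1 and 1191 in replicate 2. In lymphatic EC it stood at 1519 and 2200 CPM in replicates 1 and 2. These were the 2 classes with the most Cldn5, and they overlapped, with a log2 difference of 0.08 ± 0.34 (SE).

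Capillary EC held far less Cldn5, at 101, 86.2 and 79.2 CPM, and HEC the least, at 27.0 and 17.2 CPM. PCV exceeded capillary EC by 15.0 to 22.9 times within each of the 3 libraries, and HEC by 85.6 and 104 times in the 2 libraries that could be compared. HEC and PCV are both venous, and the 8 PCV markers reached like sums in them (7122 and 7435 CPM in HEC, 7228 to 11150 CPM in PCV). Relative to the other blood EC, the mean log2 score of that list was 1.4 in the PCV cluster and -0.8 in the HEC cluster. The list thus also told HEC from PCV, though its sum did not. After each cell was thinned to 1000 UMIs, a Cldn5 UMI was found in 4 of 380 control HEC, or 1.05% (95% Clopper-Pearson interval 0.288 to 2.67), and in 0 of 80 HEC of replicate 1, against 0.201% of control fibroblasts. The median depth before thinning was 7379.5 UMIs in control HEC and 2754 in control fibroblasts. Unthinned, the shares of HEC were 5.79% and 8.75%. In PCV the thinned shares were 79.4%, 65.9% and 51.8%.

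Arterial EC and CRP were intermediate for Cldn5. CRP held 891, 1021 and 908 CPM and were close to one another. Arterial EC held 628 CPM in the control library and 839 in replicate 1 but 132 in replicate 2, where only 12 UMIs from 38 cells were counted. In edgeR's quasi-likelihood test with Benjamini-Hochberg adjustment over 8924 genes, Cldn5 differed from capillary EC by 4.40 ± 0.34 on the log2 scale in PCV (adjusted p = 2.27e-08), by 2.63 ± 0.34 in arterial EC (adjusted p = 1.86e-05), by 4.48 ± 0.36 in lymphatic EC (adjusted p = 5.69e-09) and by -1.62 ± 0.43 in HEC (adjusted p = 0.00807). From the highest class to the lowest the order was lymphatic, PCV, CRP, arterial, capillary and HEC. Lymphatic and PCV did not differ past the threshold, nor did CRP and arterial EC (adjusted p = 0.147), while the other 3 pairs of neighbours did. At a finer clustering (resolution 1.6) the arterial difference from capillary EC was 1.48 ± 0.46 and not called (edgeR, adjusted p = 0.0557). The step from capillary EC to HEC also did not hold throughout. At a coarser clustering the HEC difference from capillary EC was 0.07 (edgeR, adjusted p = 0.943), and with doublets kept it was -0.99 (edgeR, adjusted p = 0.0833).

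**Figure D1:**
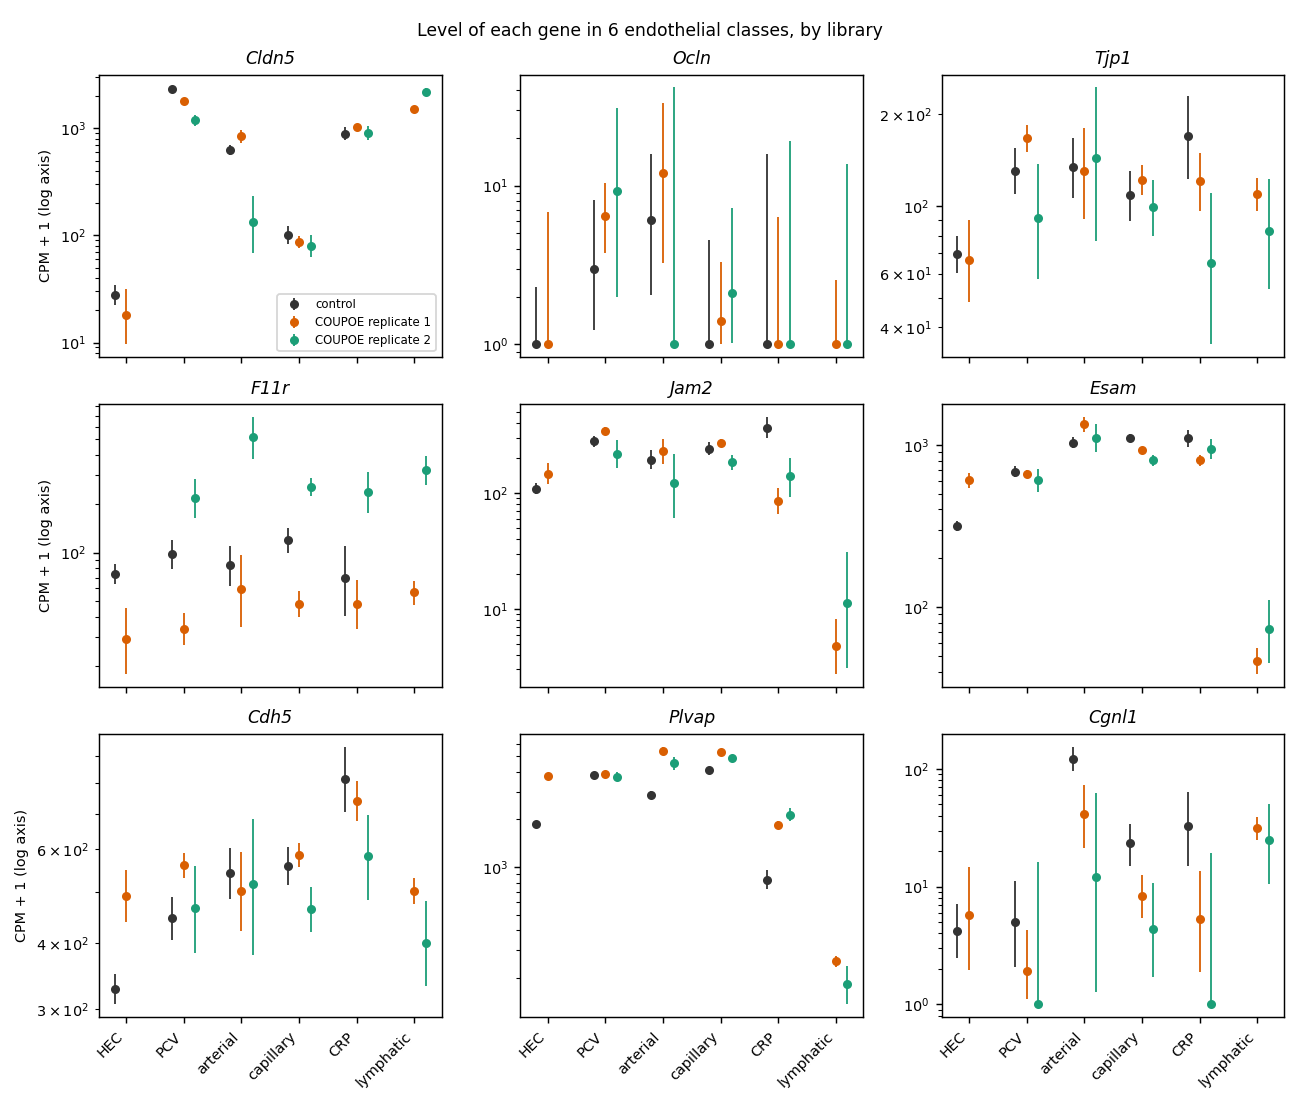
Level of each of the 9 genes (CPM + 1, log axis) in 6 classes of EC, with 1 point for each library and bars for the exact Poisson 95% interval of the count. Cldn5 runs from 17.2 CPM in HEC to 2310 CPM in PCV, Plvap, Esam and Jam2 drop in lymphatic EC, and the F11r points of COUPOE replicate 2 lie above the others in the 5 classes it has.

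Esam, Jam2 and Plvap were lower in lymphatic EC than in every blood class, whereas F11r, the other immunoglobulin-type member, did not differ past the threshold between lymphatic and capillary EC (log2 difference 0.13 ± 0.24, edgeR adjusted p = 0.778). Esam, an adhesion molecule of endothelial contacts, stood at 1104, 932 and 801 CPM in capillary EC and at 45.6 and 71.7 CPM in lymphatic EC of the 2 COUPOE libraries. Jam2, a JAM family member that binds integrins and other JAMs, stood at 240, 271 and 183 CPM in capillary EC and at 3.77 and 10.2 CPM in lymphatic EC, from 9 and 3 UMIs. No blood class overlapped lymphatic EC in either gene.

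Plvap stood at 4119, 5322 and 4868 CPM in capillary EC, and at 254 and 181 CPM in lymphatic EC. There the thinned share of cells with a UMI (10.2% and 16.5%) was near the 11.2% of control fibroblasts with a Plvap UMI. The fibroblasts came from the control library and the lymphatic EC from the COUPOE libraries, whose own background was not measured. Whether lymphatic Plvap lay above background was thus not settled. The log2 differences of lymphatic from capillary EC were -4.71 ± 0.26 for Plvap, -4.25 ± 0.28 for Esam and -5.73 ± 0.57 for Jam2 (edgeR, adjusted p = 3.18e-11, 3.84e-10 and 9.76e-08). Cdh5 and Tjp1 showed no such gap. Cdh5 stood at 501 and 400 CPM in lymphatic EC against 463 to 586 CPM in capillary EC (log2 difference -0.32 ± 0.16, edgeR adjusted p = 0.171), and Tjp1 at 108 and 82.0 CPM against 98.1 to 121 CPM (-0.23 ± 0.23, edgeR adjusted p = 0.529).

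Cgnl1 was highest in arterial and lymphatic EC by mean level. Its 121 CPM in control arterial EC (72 UMIs) compared with 40.5 CPM in replicate 1 (11 UMIs) and 10.96 CPM in replicate 2 (1 UMI). Capillary EC held 22.3, 7.39 and 3.35 CPM, so arterial EC were 5.45, 5.48 and 3.28 times as high within each library. PCV and HEC held 0 to 4.69 CPM, and CRP 32.1, 4.31 and 0 CPM. Relative to capillary EC, Cgnl1 was higher by 2.40 ± 0.37 in arterial EC and by 2.12 ± 0.40 in lymphatic EC, at 30.6 and 23.9 CPM, and the difference was -2.54 ± 0.55 in PCV and -1.94 ± 0.52 in HEC on the log2 scale (edgeR, adjusted p = 0.000149, 0.000284, 0.00375 and 0.00868). Control fibroblasts held 35.7 CPM of Cgnl1, above control capillary EC, and 8 fibroblast markers summed to 79.2 to 135 CPM in the control EC classes but to 0 to 12.3 CPM in the blood EC classes of the COUPOE libraries. Their part in the capillary value was not tested.

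Of the 8 members that could be tested, 3 of 8 differed between HEC and capillary EC, against 22.8% of all genes tested, and the 3 were lower in HEC (Cldn5, Cgnl1 and Esam). In PCV 2 of 8 differed (8.7% of all genes), Cldn5 upwards and Cgnl1 downwards, and 2 of 8 in arterial EC (6.96%), both upwards. In lymphatic EC 5 of 8 differed (24.8%), with Cldn5 and Cgnl1 up and Plvap, Esam and Jam2 down. Between HEC and PCV 3 of 8 differed (18.4%), each lower in HEC. The median log2 difference of the members was -0.54 in HEC, -0.11 in PCV, 0.23 in arterial and -0.28 in lymphatic EC relative to capillary EC, beside medians of all genes of -0.02, -0.01, -0.04 and -0.01.

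Besides Cldn5, HEC and PCV differed in Jam2 and Tjp1. Jam2 stood at 108 and 145 CPM in HEC and at 277, 343 and 218 CPM in PCV, without overlap, and differed by -1.05 ± 0.34 (edgeR, adjusted p = 0.0336). Tjp1 stood at 68.5 and 65.7 CPM in HEC and at 130, 166 and 90.3 CPM in PCV, again without overlap, and differed by -0.78 ± 0.22 (edgeR, adjusted p = 0.0163). Neither call held in every fit, since the adjusted p of Jam2 was 0.100 without COUPOE replicate 2 and that of Tjp1 0.376 without COUPOE replicate 1. Esam was lower in HEC than in capillary EC by -0.73 ± 0.22 (edgeR, adjusted p = 0.0184), at 316 CPM in the control library and 602 CPM in replicate 1. Without the control library the last difference was -0.31 (edgeR adjusted p = 0.421). The Esam call thus needs the control library, as does that of Cgnl1, which stood at -0.35 without it (edgeR adjusted p = 0.917). Lymphocyte markers moved with HEC, at 57.9 and 56.3 CPM summed over 8 genes in the control library and replicate 1 against 0 to 8.02 CPM in the other blood EC classes, and their part in these values was not tested.

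**Figure D2:**
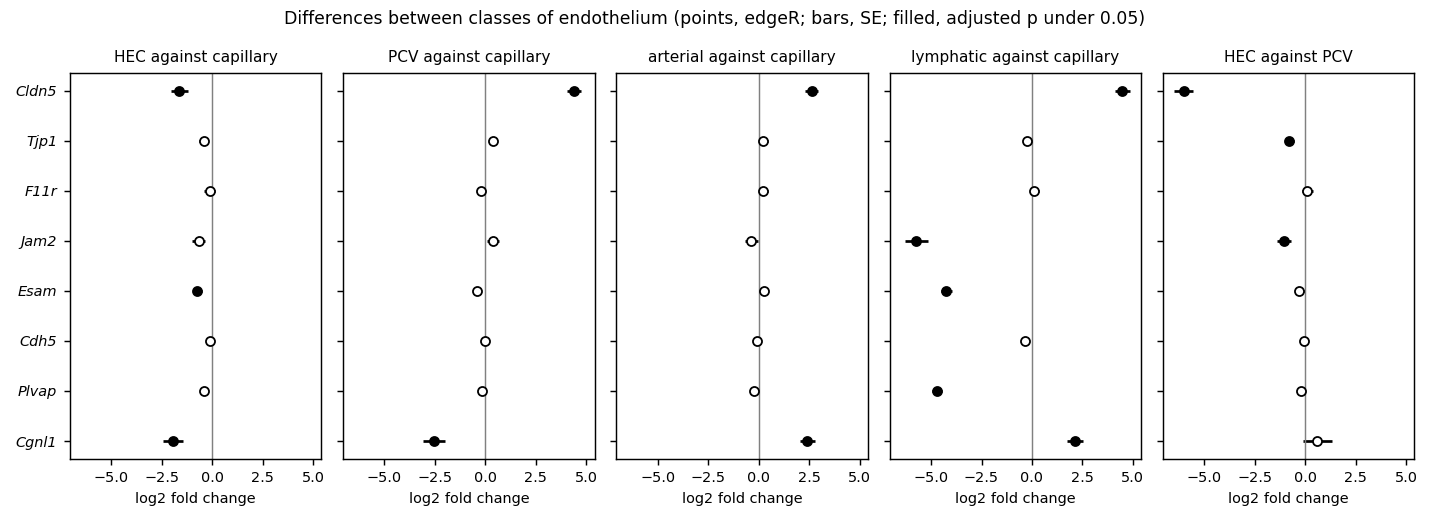
Log2 fold change between classes of EC for the 8 members tested, by edgeR, with bars for the SE, one panel for each comparison, and filled points for an adjusted p under 0.05. Cldn5 lies far to the right in PCV, arterial and lymphatic EC and at -6.02 for HEC against PCV, whereas Cdh5, F11r and Plvap are open in every comparison of blood classes.

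The remaining order of classes was flatter. Tjp1 ranged from a mean of 67.1 CPM in HEC to 135 CPM in arterial EC, and no pair of neighbours in the order arterial, PCV, CRP, capillary, lymphatic and HEC differed past the threshold. By the mean share of cells with a Tjp1 UMI after thinning, PCV were instead highest and capillary EC lowest. Cdh5 ranged from a mean of 408 ± 115 CPM (SD, n = 2 libraries) in HEC to 712 ± 119 CPM (n = 3) in CRP, and its neighbours also did not differ past the threshold. For Plvap the means ran from capillary (4770 ± 607 CPM, SD, n = 3) through arterial (4276 ± 1304), PCV (3810 ± 86.3) and HEC (2809 ± 1308, n = 2) to CRP (1610 ± 688) and lymphatic EC (217 ± 51.4, n = 2). Only the last 2 steps passed the threshold, by 1.25 ± 0.21 from HEC to CRP and by 3.06 ± 0.24 from CRP to lymphatic EC (edgeR, adjusted p = 0.000162 and 9.59e-09). CRP were thus the blood class with the least Plvap. For Esam and Jam2, the single step that passed the threshold was the one to lymphatic EC. For Cgnl1, the order was arterial, lymphatic, CRP, capillary, HEC and PCV, and the steps from lymphatic EC to CRP and from capillary EC to HEC passed. For these pairs of classes, the share of all genes that differed was 23.8% for PCV against lymphatic, 11.6% for PCV against CRP, 9.23% for CRP against arterial, 10.3% for PCV against arterial, 18.6% for HEC against CRP, 25% for HEC against arterial, 29.4% for HEC against lymphatic, 20.6% for arterial against lymphatic, 18.5% for CRP against lymphatic and 3.22% for CRP against capillary EC.

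Cldn5 and Plvap did not simply mirror each other. In PCV both were high, and in lymphatic EC Cldn5 was high and Plvap low. In HEC Plvap was present at 1884 and 3734 CPM with little Cldn5. In the mixed CRP class Cldn5 was high with reduced Plvap. High Cldn5 was not shared by all cells that resemble CRP. At the finer resolution another cluster named CRP by its markers, with cells from an unnamed cluster, held little Cldn5, as given below. The unnamed clusters filled in the range. Cluster 7, led by Cytl1 and Adgrg6, held 3006, 1764 and 1947 CPM of Cldn5 in the control library, replicate 1 and replicate 2 beside 3970, 4683 and 4269 CPM of Plvap, much like PCV. Cluster 11, led by Bmp2, held 579, 861 and 596 CPM of Cldn5. Among capillary clusters, cluster 13 held 1 Cldn5 UMI in the control library and 1 in replicate 2, with Plvap at 5917 and 7663 CPM. Cluster 13 scored higher on the CRP list (2.0) than on the capillary list (1.51), and the study's labels decided its name.

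**Figure D3:**
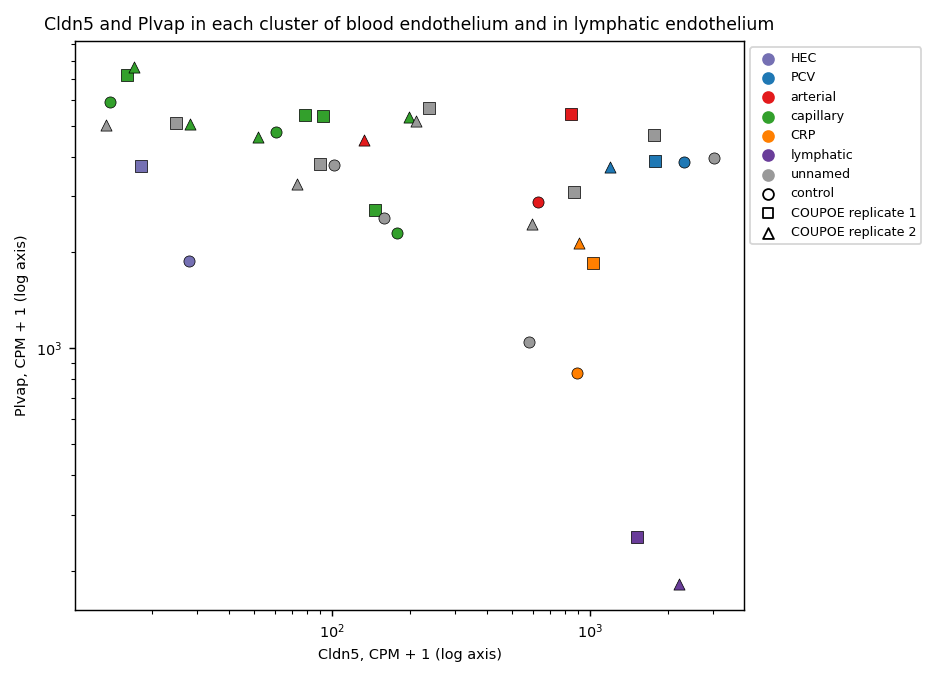
Cldn5 against Plvap (CPM + 1, both log axes) in each cluster of blood EC with at least 20 cells in a library and in lymphatic EC, with colour for the class and symbol for the library. Capillary clusters lie at high Plvap and low Cldn5, PCV at high values of both and HEC at the left. The mixed CRP class lies at high Cldn5 with reduced Plvap, and lymphatic EC at the lower right.

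Occludin was close to the limit of detection. Ocln gave 2, 12 and 2 UMIs in PCV, 3, 3 and 0 in arterial EC, 0, 1 and 1 in capillary EC and 0 in all sums of HEC, CRP and lymphatic EC. The 2817336 UMIs of control HEC with a count of 0 are the deepest of these sums. Ocln did not pass the filter on low counts and was not tested. Epithelial markers, 9 genes in sum, moved with the PCV libraries at 3.96, 278 and 341 CPM, and their part in the Ocln counts was not tested. A share of 0 of 380 control HEC with an Ocln UMI has an upper limit of 0.966% at the thinned depth.

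F11r differed more between libraries than between classes. Its level was 218, 515, 253, 237 and 321 CPM in the PCV, arterial, capillary, CRP and lymphatic EC of COUPOE replicate 2. The same classes of replicate 1 held 32.8, 58.9, 47.2, 47.4 and 55.7 CPM, and the 4 blood classes of the control library held 96.9, 82.7, 118 and 68.2 CPM. Replicate 2 was highest in every class that could be compared, by 2.14 to 6.23 times the control library, and replicate 1 was lowest in every class, so the 2 COUPOE libraries lay on opposite sides of the control in the blood classes with all 3 libraries. In pericytes and smooth muscle cells the control library was highest and replicate 1 again lowest, at 60.9 CPM in the control library, 21.6 in replicate 1 and 31.4 in replicate 2. Between classes, no pair of neighbours in the order of F11r differed past the threshold with the library as a block. The 3 genes whose pattern over the 16 library-by-class sums was most like that of F11r were Il2, Gm9774 and Sarnp (Pearson r = 0.953, 0.953 and 0.951 of log2(CPM + 10), a description over sums that share libraries). Il2 stood at 58.0 CPM in capillary EC of replicate 2, at 6.78 in the control library and at 1.23 in replicate 1, and Gm9774 at 62.5, 11.6 and 0 CPM, so the likeness lay in the library. Both COUPOE libraries share the genotype and yet lay on opposite sides of the control in F11r. The cause of this pattern was not tested. The Cell Ranger version differed in replicate 1, and its gene table had no CreERT2 row, unlike those of the other libraries. The part of neither was tested.

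**Figure D4:**
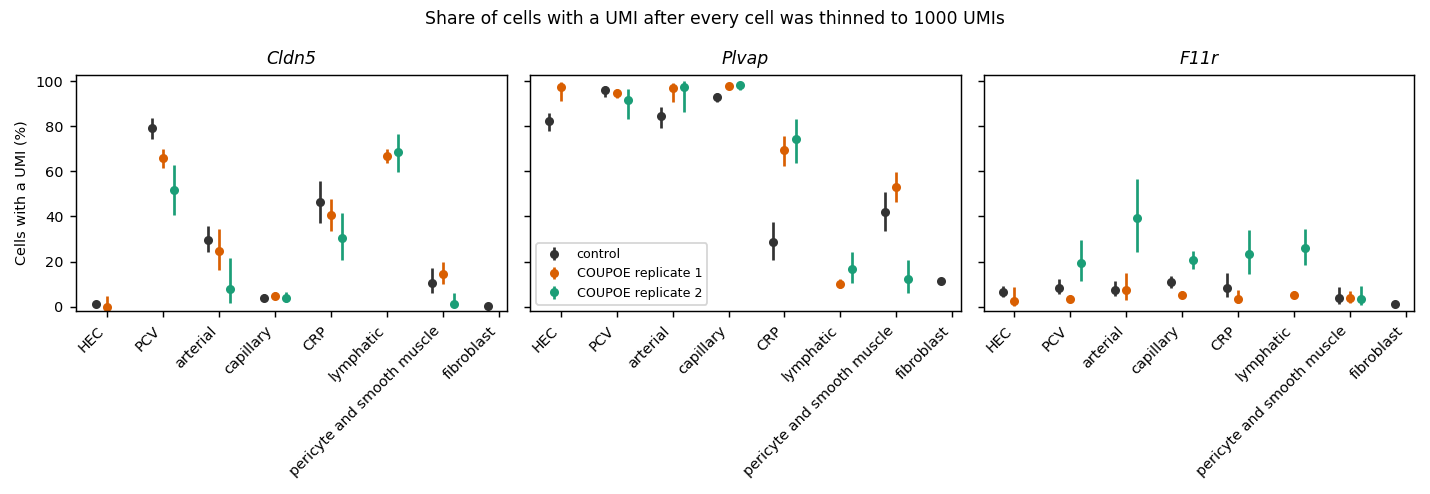
Share of cells with at least 1 UMI of Cldn5, Plvap or F11r after thinning to 1000 UMIs, for 6 EC classes, pericytes and fibroblasts, by library, with Clopper-Pearson 95% intervals. Cldn5 is found in 65.9% and 67.0% of PCV and lymphatic EC of replicate 1 but in 0 to 1.05% of HEC, Plvap in 10.2% and 16.5% of lymphatic EC of the COUPOE libraries beside 11.2% of control fibroblasts, and F11r in 19.3% to 39.5% of the EC of replicate 2.

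Likeness over the same 16 sums put Lrrc8c, Flt1 and Lims2 beside Esam (r = 0.970, 0.967 and 0.956) and Nkx2-3, Entpd1 and Srgn beside Plvap (r = 0.937, 0.931 and 0.927), among 7470 genes with at least 50 UMIs in a sum. Flt1, the VEGF receptor 1 of blood endothelium, stood at 18.8 and 20.5 CPM in lymphatic EC, and Nkx2-3, a homeobox factor of gut and splenic endothelium, at 7.12 and 10.2 CPM. Jam2 was most like Zfp366, Tmem255b and Gstt3 (r = 0.929, 0.910 and 0.903). The best matches of the other genes were weaker, at r = 0.881 for Cdh5 (Irf7), 0.861 for Cgnl1 (Utrn), 0.829 for Tjp1 (Atg5) and 0.810 for Cldn5 (Foxn3). The match of Ocln (Atp2a3, r = 0.816) rests on at most 12 UMIs in a sum.

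The question for the genotype was whether COUP-TFII overexpression changed the junction genes within a class. In capillary, arterial and PCV cells, no member passed the edgeR test, 0 of 8, 0 of 8 and 0 of 7 tested, beside 1.75%, 0.841% and 0.997% of all genes tested. At an unadjusted p under 0.05 in edgeR there were 1 member in capillary EC (Cgnl1), 2 in arterial EC (F11r and Cgnl1) and 0 in PCV. Of all genes tested, 922 of 8974, 244 of 5231 and 599 of 8728 were under it in the same classes. DESeq2 called none of the members in these 3 classes. The lone control library was assumed to vary as the COUPOE libraries do. With 1 control library a difference can be missed, so a missing call does not show that a member was unchanged. Lymphatic EC could not be compared, as the control library held 4 of them.

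Among members with at least 50 UMIs in a library, arterial Cgnl1 lay furthest from the control in these 3 classes by mean log2 ratio. By the size rule, at least 2-fold on the same side of control in both COUPOE libraries among genes with at least 50 UMIs in a library, it was the only one of 7 eligible members that was lower in arterial EC (2.66% of 2028 genes were), with log2 ratios of -1.59 and -3.47 (edgeR difference -1.91 ± 0.64, adjusted p = 0.194). The direction was the same in capillary EC, with ratios of -1.59 and -2.74 from 23, 18 and 3 UMIs. No member passed the rule in capillary EC, where 4.45% of genes were higher and 2.21% lower, or in PCV, where 3.32% were higher and 1.72% lower, nor upwards in arterial EC (1.43%). The fibroblast markers given above, higher in the control library, move with it, and their part was not tested. The paper could identify mature Gkn3-positive arterial EC in its WT cohort alone. Here Gkn3 was among the leading genes of the arterial class, and replicate 1 had UMIs of all 9 arterial markers, Gkn3 included. At resolution 1.6 the arterial cluster with Gkn3 among its leading genes held 182, 75 and 31 cells. How these cells relate to those of the paper was not tested. The mix of arterial cells may differ by library, and its part was not tested. Plvap was higher in both COUPOE libraries in arterial EC by 0.92 and 0.66 and in capillary EC by 0.37 and 0.24 on the log2 scale, and near the control in PCV at 0.02 and -0.04, with no call. Cdh5, whose promoter drives the recombinase, lay between -0.27 and 0.33 of the control in the 3 classes.

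Capillary EC of the control library and of the COUPOE libraries lay mostly in different clusters, with 417 of 585 control cells in cluster 5 and 533 of 943 and 287 of 386 COUPOE cells in cluster 1. Cluster 5 was a tie between lists that the study's labels decided. Its capillary score was 0.89, against 0.22 and 0.28 in clusters 1 and 10. The labels that could be used were those of COUPOE cells, of which cluster 5 held 38 and 24 in replicates 1 and 2. The tie was thus decided for its 417 control cells without a label from the control library. Summed capillary markers in replicate 1 were alike in capillary EC (12314 CPM) and PCV (12263 CPM), so the capillary name is a loose one. The study labels capillary EC of the PP and of the gut lamina propria apart, and the capillary class here was not split in that way. Cluster 2, led by Scgb3a1, Prom1 and Cxcl12 and left unnamed, held 423, 147 and 133 cells and allowed a comparison within 1 cluster, added after its values were seen. There Cldn5 fell from 101 CPM (83 UMIs) to 23.9 (7 UMIs) and 12.3 CPM (3 UMIs), a log2 difference of -2.40 ± 0.54 (edgeR, adjusted p = 0.0158). It also passed the size rule, as 1.9% of genes did downwards and 1.75% upwards. The cells of cluster 2 were not one kind, and the mix differed between libraries. At resolution 1.6, 155, 37 and 15 of them fell into an arterial cluster and 268, 110 and 117 into a cluster named CRP by its markers. Cldn5 stood at 237, 42.8 and 47.9 CPM in that whole arterial cluster, from 115, 5 and 2 UMIs, and at 20.3, 9.40 and 4.71 CPM in the other, from 10, 2 and 1 UMIs. The control library was thus highest in both, with few UMIs in the COUPOE libraries and no test made. Cldn5 was lower in both COUPOE libraries in cluster 5 as well, at 59.5, 15.0 and 27.2 CPM, but from 36, 1 and 1 UMIs. Over the whole capillary class the ratios were -0.23 and -0.35, and in PCV -0.37 and -0.96.

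CRP were compared by genotype after their levels had been seen. Jam2 fell from 365 CPM in the control library to 84.8 and 138 CPM, by -1.69 ± 0.45 (edgeR, adjusted p = 0.0415), 1 of the 7 members tested beside 1.75% of all genes, and it differed from its change in capillary EC by -1.83 ± 0.39 (edgeR interaction, adjusted p = 0.00369), 1 of 8 members beside 0.504% of all genes. DESeq2 called neither the CRP difference of Jam2 (adjusted p = 0.9995) nor its interaction (adjusted p = 0.634), and edgeR did not call the difference with doublets kept (adjusted p = 0.107). At resolution 1.6 the Jam2 interaction was -0.23 (edgeR, adjusted p = 1) and Cldn5 was called in its place (2.44 ± 0.49, edgeR adjusted p = 0.00259). Plvap stood at 834, 1849 and 2146 CPM, higher by 1.15 and 1.36 on the log2 scale, which passed the size rule (5.85% of 2376 genes were higher and 2.44% lower) but not edgeR (1.33 ± 0.57, adjusted p = 0.327). The interaction for Plvap stood at 0.94 ± 0.25 (edgeR, adjusted p = 0.0506). Pericyte and smooth muscle markers, 9 genes in sum, stood at 36.1, 185 and 78.9 CPM in CRP, and their part in these values was not tested. The mix of cells within CRP also differed, and the paper reports that its male WT mice lacked CRP. At the finer resolution the Gpihbp1 cluster, named capillary by its markers, held 95, 104 and 41 cells and the Apln cluster, named CRP, 23, 90 and 42. Within the Gpihbp1 cluster Jam2 stood at 485 against 135 and 204 CPM and Plvap at 859 against 2352 and 2372 CPM. Within the Apln cluster Jam2 stood at 79.0 against 37.6 and 94.1 CPM and Plvap at 803 against 1357 and 2019 CPM. So the Plvap values were apart in both clusters and the Jam2 values in 1 of them. In cluster 11 Plvap also passed the size rule, at 1046 against 3088 and 2462 CPM (3.95% of 1062 genes were higher and 3.39% lower).

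**Figure D5:**
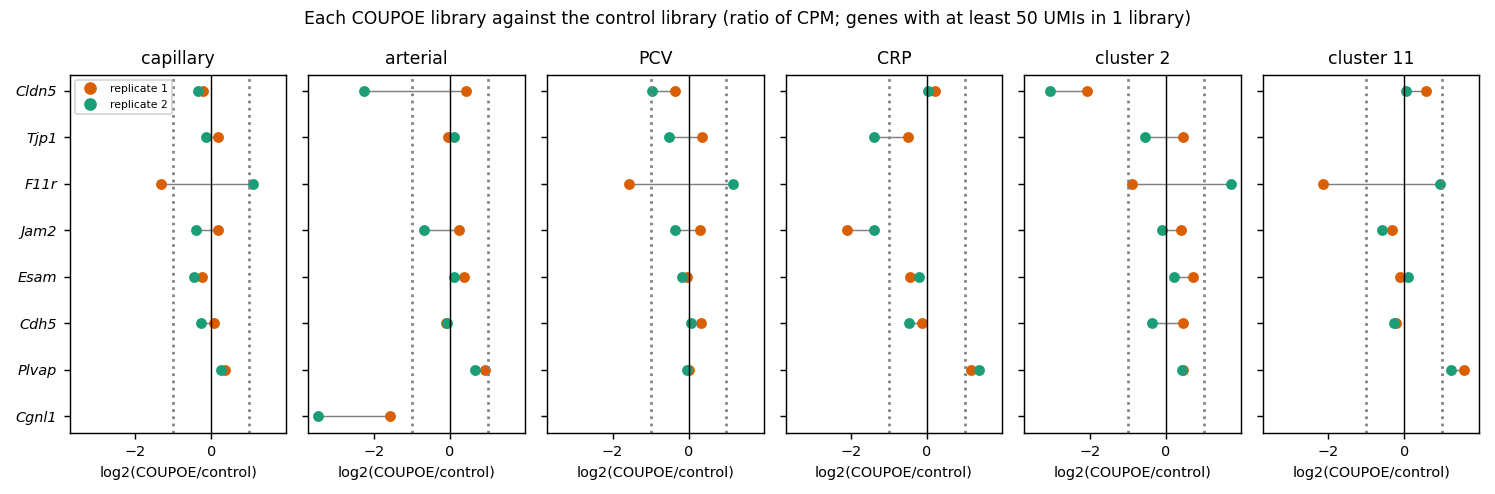
Log2 ratio of the CPM of each COUPOE library to the control library in 4 classes and 2 unnamed clusters, for members with at least 50 UMIs in a library, with dotted lines at 2-fold. F11r, where shown, falls on opposite sides of the control in replicates 1 and 2, Plvap lies right of the line in CRP and cluster 11, Jam2 left of it in CRP, Cldn5 in cluster 2 and Cgnl1 in arterial EC.

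Whether a genotype difference was unlike that in capillary EC was tested with an interaction term. In arterial EC and in PCV 0 of 8 members passed, beside 0.919% and 1.22% of all genes tested. At an unadjusted p under 0.05, beside 563 and 560 of all 8924 genes, there were 2 members in arterial EC (F11r and Esam) and 0 in PCV. The largest of these was F11r in arterial EC at 1.23 ± 0.41 (edgeR, adjusted p = 0.215), a gene that differed between the 2 COUPOE libraries as described above.

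The wider junction was represented by 39 further genes, of which 30 could be tested between classes. In HEC 4 were higher and 5 lower than in capillary EC, or 30% beside 22.8% of all genes. Highest was Cldn11, a claudin of barrier-forming myelin and testis junctions (4.37 ± 0.70), followed by Nectin1 (3.52 ± 0.45), and lowest were Jup, the plakoglobin of adherens junctions (-3.28 ± 0.40), and the angiomotin family member Amotl2 (-1.45 ± 0.29). In PCV 3 were higher and 2 lower (16.7% beside 8.7% of all genes), with Pard3, a polarity protein (3.39 ± 0.70), and Nectin1 (1.90 ± 0.48) up and Jam3 (-1.92 ± 0.32) and Jup (-1.67 ± 0.29) down. In arterial EC 2 were higher, the tricellular junction receptor Lsr (3.75 ± 0.89) and the CCM receptor Heg1 (0.92 ± 0.17), and 3 were lower, among them Pcdh12 (-2.97 ± 0.52) and Nectin2 (-1.87 ± 0.37). The arterial share was 16.7% beside 6.96% of all genes. All these values are log2 differences from edgeR. Some rest on few UMIs, given here for the control library, replicate 1 and replicate 2. Lsr had 19, 5 and 0 UMIs in arterial EC and 0, 4 and 1 in capillary EC. Pard3 had 10, 31 and 4 in PCV and 2, 2 and 1 in capillary EC. For Nectin1 the counts were 11, 23 and 4 in PCV and 5, 6 and 2 in capillary EC. Cldn11 had 1, 0 and 5 in capillary EC and 2, 10 and 5 in PCV. In HEC it had 61 in the control library and 6 in replicate 1.

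In lymphatic EC 6 of the 30 were higher and 4 lower, or 33.3% beside 24.8% of all genes. Cldn11 (6.12 ± 0.51) and Pard3 (4.31 ± 0.70) were furthest up, and Heg1 (-2.73 ± 0.24) and Ptprb, the phosphatase that binds VE-cadherin (-1.71 ± 0.23), furthest down. Between HEC and PCV 4 were higher and 5 lower (30% beside 18.4% of all genes), with Jam3 (3.06 ± 0.34) and Cldn11 (2.23 ± 0.58) up and Ptprb (-2.14 ± 0.23) and Jup (-1.61 ± 0.46) down. Jam3 and Jam2, which bind each other, thus went opposite ways between HEC and PCV. Cldn11 overlapped between these classes, since PCV of replicate 2 (20.5 CPM) lay between HEC of the control library (21.7 CPM) and of replicate 1 (9.39 CPM). By genotype 0 of 26, 0 of 17 and 0 of 29 of the list passed edgeR in capillary, arterial and PCV cells (1.75%, 0.841% and 0.997% of all genes), and 1 of 22 in CRP (1.75%), the nectin Nectin2 (2.03 ± 0.53, adjusted p = 0.0335). In CRP it stood at 100 CPM in the control library and at 434 and 345 CPM in the COUPOE libraries. By the size rule, 2 were higher and 2 lower of 22 eligible genes of the list in capillary EC, 0 and 1 of 10 in arterial EC, 3 and 1 of 22 in PCV and 1 and 0 of 13 in CRP. Of all eligible genes, 4.45% were higher and 2.21% lower in capillary EC and 1.43% and 2.66% in arterial EC. In PCV 3.32% and 1.72% were, and in CRP 5.85% and 2.44%. Nectin2 passed the size rule upwards in capillary EC (log2 ratios 1.91 and 1.76), in PCV (1.12 and 1.25) and in CRP (2.11 and 1.78), and Jam3 downwards in capillary EC (-1.44 and -1.77), both singled out after their values were seen.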

How the data were processed

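Single-cell libraries described as sorted PP EC were analysed, 1 control and 2 COUPOE libraries, grouped by their labels. The authors deposited raw UMI counts per gene and barcode. The submitters' processing notes name Cell Ranger 3.0.2 and the build mm10. The deposited counts are not normalized, and 0 columns of other samples were left out. Cells had at least 500 genes, 1000 UMIs and at most 10% mitochondrial UMIs, and Scrublet (scanpy 1.11.5) removed 132, 46 and 4 doublets in the control library, COUPOE replicate 1 and COUPOE replicate 2. Of the barcodes, 12 were shared by the control library and replicate 2. Seurat 5.3.0 integrated the libraries over 2000 variable genes, with the 9 members, the other junction genes and Nr2f2 left out. Classes were named by marker lists. Ties between lists were decided by the study's subset labels, of which 1999 cells could be used, all from the COUPOE libraries. Counts were summed by library and class (at least 10 cells) and tested with edgeR 4.0.16 (R 4.3.3; TMM scaling, filterByExpr, quasi-likelihood test, Benjamini-Hochberg adjustment over all genes, threshold 0.05), between classes with the library as a block and by genotype within a class. DESeq2 1.42.0 was an alternative. CPM intervals are exact Poisson and cover counting error only. The median depth per barcode was 2368.5, 2884 and 2180 UMIs. Genes were placed with GENCODE vM21 (GRCm38). Plvap overlaps Gtpbp3 and Cdh5 overlaps Gm29682 on the opposite strand, and reads of Tjp1 and Jam2 could be shared with small overlapping genes on their own strand. The tests were also run on simulated data, where most 2-fold changes were not called. All members were named, with at most 2 risen and 2 fallen genes of the junction list in each comparison and the 3 genes most alike. The members and lists were chosen with earlier results of these data known.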

Additional observations from a re-analysis of the deposited data

Results flagged for a closer look

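The genotype difference of Jam2 in CRP was unlike that in capillary EC, by -1.83 on the log2 scale in the interaction test. It rests on a comparison added after the levels were seen, and it was -0.23 at resolution 1.6 (edgeR, adjusted p = 1) and not called by DESeq2 (adjusted p = 0.634). Nr2f2, the overexpressed gene, rose less in PCV than in capillary EC, by -3.43 on the log2 scale in the same test (edgeR, adjusted p = 1.31e-11), from 235 CPM in control PCV and 19.4 CPM in control capillary EC. The rule for single outlying samples needs 4 or more samples in a group and was not applied.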

How the results depend on the processing

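Of the 17 differences of members called, 6 kept their call under every alternative and every left-out library that could be tested. With no library block the counts of members called were 0 for HEC against capillary EC, 1 for PCV against capillary, 1 for arterial against capillary, 4 for lymphatic against capillary and 1 for HEC against PCV, where the block gave 3, 2, 2, 5 and 3. For HEC against capillary EC the count was 1 with DESeq2, 5 with no filter on low counts and 1 at resolution 0.6, where the difference of Cldn5 turned to 0.067, and it ranged from 1 (without the control library) to 3 on leaving out a library. For arterial against capillary EC it was 1 at resolution 1.6, where the call of Cldn5 was lost. For the genotype in CRP, 1 member became 0 with DESeq2, at resolution 1.6, with doublets kept and with libraries split by sex, and the interaction with capillary EC gave 0 with DESeq2, 2 with RLE size factors and 2 at resolution 0.6. At resolution 1.6, where the CRP name covered further cells, the count stayed at 1 but the gene was Cldn5 (2.44) and not Jam2 (-0.23). For the genotype in capillary EC, 0 became 1 in cluster 2 alone. The CRP and cluster 2 fits were chosen after seeing the data. The cause of these changes was not tested.

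Over all genes, calls ranged from 828 to 2456 for HEC against capillary EC (2031 as reported), 264 to 1052 for PCV (776), 264 to 849 for arterial (621), 904 to 2621 for lymphatic EC (2213) and 547 to 1806 for HEC against PCV (1646). By genotype they ranged from 23 to 448 in capillary EC (157), 5 to 61 in arterial EC (44), 22 to 175 in PCV (87) and 14 to 167 in CRP (84). For the interactions they ranged from 31 to 112 (82), 36 to 169 (109) and 11 to 71 (45) in arterial EC, PCV and CRP.

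Arterial Cldn5 by genotype stood at -2.16 without COUPOE replicate 1 and at 0.48 without replicate 2. The interactions were not run with a library left out, as no residual degree of freedom was left, and the genotype in lymphatic EC could not be fitted. No paired analysis was possible because the control library carries no replicate number. HEC and lymphatic EC rest on 2 libraries each, and Ocln and Cgnl1 on few UMIs, as do Lsr, Pard3, Nectin1 and Cldn11 in the classes given above.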
